A study of Drosophila melanogaster with 3 samples.

Results

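Far intron peaks are stretches where chromatin pulled down with ind-eGFP was enriched, and direct binding was not measured. They lay inside genes, in introns, a long way from any place where transcription begins. They were taken from the authors' optimal list of peaks in the dm6 genome build. A member had its summit (the point of highest enrichment) inside an annotated gene body, outside coding sequence and untranslated regions, and more than 5000 bp from the nearest annotated transcript start of any kind. Of the 5809 optimal peaks 674 met this rule, which used positions alone and not signal. The other classes were 1475 near intron peaks (over 500 bp and up to 5000 bp from a start), 780 intergenic peaks, 2792 promoter peaks (within 500 bp of a start) and 88 in coding or untranslated sequence.

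The peaks came from chromatin immunoprecipitation with sequencing (ChIP-seq) on 3 biological replicates of whole Drosophila melanogaster embryos, sexes pooled, aged 0 to 16 hours, of the transgenic strain ind-GFP. This line stably makes the ind protein fused to GFP at its C-terminal end, and an anti-GFP antibody pulled the chromatin down. All replicates formed 1 group, from separate biosamples of 1 line, so there was no comparison between conditions. Whole embryos mix the cells that make ind with many that do not, and which cells gave a peak cannot be told apart.

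The gene ind (intermediate neuroblasts defective) encodes a homeodomain transcription factor that specifies neuroblasts of the middle stripe of the ventral neuroectoderm. Homeodomains bind short AT-rich sites built on the core TAATTA or close variants. Long introns of developmental genes in flies often hold enhancers, which are stretches that bind transcription factors and control genes from a distance.

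By ratio to sequence 1000 bp away, the letters that stood out at far intron peaks were not the homeodomain core but the element CAGTGNA, where N is any base. Sequence from 10 of the strongest far intron peaks that held it, all found in all 3 replicates, is shown first, as the text to which the later results refer. Each line gives 30 bases in dm6 from the RefSeq assembly, 5′ to 3′ on the strand that reads CAGTGNA, with the element in capitals. In the first set the 5′ side of the element faced the summit, and 3 to 6 of the 7 bases before it were T.
Gug, chr3L:8458401-8458430, plus strand: gccattttttttatCAGTGTAgtctgtccg
JIL-1, chr3L:11084842-11084871, plus strand: aaattttttttttgCAGTGTAcgtgtgtat
sog, chrX:15619411-15619440, minus strand: attcttatttctcgCAGTGCAtcgtcttcg
mew, chrX:13251574-13251603, plus strand: tagagcattttcttCAGTGTAgtttgttga
rdx, second peak, chr3R:13999654-13999683, minus strand: atcatgattatttcCAGTGTAattgggggg
Myo10A, chrX:10936855-10936884, plus strand: gtctttacttcgctCAGTGTAtgacatgtt

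In the other 4 the 5′ side faced away from the summit, and 0 to 2 of the 7 bases before the element were T.
rdx, strongest peak, chr3R:14012632-14012661, plus strand: cttaagtgagggcaCAGTGGAacaaaatgg
fz, chr3L:14303970-14303999, plus strand: tctgatgtcgggtaCAGTGAAtaatgccta
CG6966, chr3R:15087698-15087727, plus strand: caaacataaaagcaCAGTGGAaaaaaacag
Snoo, chr2L:7925483-7925512, plus strand: aaacattgatggtaCAGTGAAgcggatgct

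For comparison, the homeodomain core TAATTA is shown in capitals for the 3 that held it among the 12 strongest far intron peaks found in all 3 replicates. For each the match nearest the summit is given.
simj, chr3L:10683024-10683053, plus strand: ttaaaattgccagtTAATTAtgataaataa
rdx, strongest peak, chr3R:14012681-14012710, plus strand: ttcgtacggagtaaTAATTAtgctaatcgg
wdb, chr3R:27569923-27569952, plus strand: tgccagatactaacTAATTAcgagtaacta

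CAGTGNA, sought on both strands, lay within 100 bp of the summit in 218 of the 674 far intron peaks (32.3%), against 10.1% of windows of the same width centred 1000 bp to each side. Over all optimal peaks the share was 23.3%. The ratio of summit to flanks was 3.21. In each replicate's own list of strongest peaks the far intron share was 28.0%, 33.6% and 32.9% in replicates 1, 2 and 3, and the ratio was 2.82, 3.16 and 3.76 (3.25 ± 0.480, SD, n = 3). The ratio thus stood above 2.8 in each replicate, and the share in windows tiled over all far intron sequence was 9.51%. The element was put together from the 6-mers that ranked highest in these same peaks (GTGCAC at a ratio of 3.82, AGTGTA at 3.41, ACACTG at 3.28, and CACTGA and CAGTGC at 3.01 each), so its values are a description with no test.

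Peaks in other places away from promoters carried the element too. Far intron peaks had it in 32.3%, intergenic peaks in 34.1% and near intron peaks in 28.3%, whereas promoter peaks had it in 15.3% (ratio 1.43). Far intron sequence also held 3523 weaker peaks in the authors' pooled list, ranked from 5810 on by signal. Peaks at or beside optimal peaks were not removed from these, so some may have served to choose the element. Of these 20.7% held it, against 10.1% of their flanks. Their share was 30.4% at ranks 5810 to 10000, 21.7% at ranks 10001 to 15000, 18.8% at ranks 15001 to 20000 and 14.2% at ranks 20001 to 24244. The optimal and pooled lists share reads, so these are peaks of the same experiment and not a further experiment.

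The element was more frequent beside the summit than under it. In bins of 100 bp, 21.5% of far intron peaks held a match centred at -100 bp and 21.5% at +100 bp, against 8.75% in the bin on the summit and 4.45% and 6.08% at -1000 and +1000 bp. In replicates 1, 2 and 3 the bin on the summit held a match in 9.17%, 12.4% and 11.6% of far intron peaks. Of the 262 matches within 100 bp of a far intron summit, 63 lay within 50 bp of it. A match also had a direction. Of 321 matches between 30 and 130 bp from the summit, 243 (75.7%) had their 5′ side facing it. This share was 73.6%, 80.7% and 74.7% in replicates 1, 2 and 3, and the median distance of such matches was 79.0 bp. Over 150 and up to 300 bp from the summit 69 of 131 matches (52.7%) faced it. A facing match stood beside 194 far intron peaks (28.8%), on both sides in 42. Between 30 and 130 bp the share of matches facing the summit was 75.7% for far intron peaks, 77.1% for intergenic, 61.9% for near intron and 62.5% for promoter peaks. Over 150 and up to 300 bp it was 52.7%, 64.9%, 49.2% and 60.5% in the same order, so promoter peaks differed little between the 2 ranges.

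**Figure D1:**
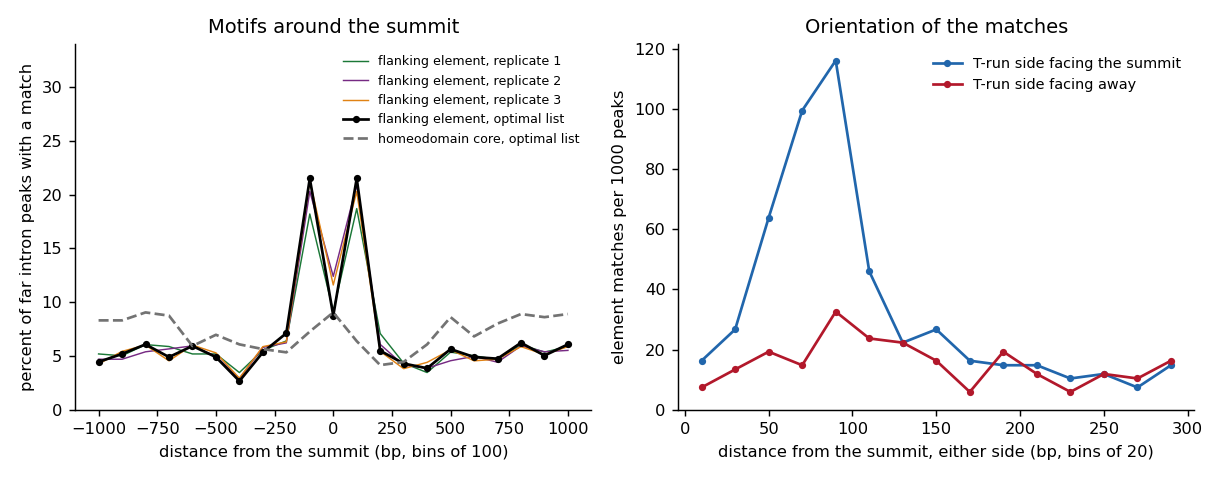
Left, percent of far intron peaks with a match of the flanking element (CAGTGNA; black, optimal list; coloured, each replicate's own list) or of the homeodomain core (TAATTA; dashed) in bins of 100 bp around the summit. Right, element matches per 1000 far intron peaks by distance from the summit, with the 5′ side facing the summit in blue and facing away in red. The key calls the 5′ side the T-run side, although few matches facing away had such a run. The element peaks at 21.5% on both sides with 8.75% at the summit, and 243 of 321 matches between 30 and 130 bp face the summit.

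Facing matches came with a run of T. Counting backwards from the first base of the element, the bases at positions -7, -6 and -5 were T in 69.5%, 69.8% and 70.6% of the 262 matches within 100 bp of a far intron summit. For matches in tiled far intron sequence the same bases were T in 33.8%, 33.4% and 31.8%. All 3 bases were T in 54.2% of the matches at peaks, against 10.1% of those in tiled sequence. Split by direction, between 30 and 130 bp from the summit, TTT stood there in 65.0% of facing matches and in 2.56% of those facing away. The sequences at Gug and JIL-1 show the facing form, and those at rdx (strongest peak) and CG6966 the form without it. Of the facing matches 35.8% lay in sequence that the assembly masks as repeats or low complexity. The windows around all far intron summits were masked over 21.6% and far intron sequence as a whole over 25.9%. The part of masked sequence in the pattern was not tested.

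Carrying the element went with little else. Relative signal is a peak's signal over the median of the optimal list. In a replicate it is the signal of the matched peak over the median of all its peaks matched to optimal peaks. Far intron peaks with the element had a median relative signal of 0.837 ± 0.0418 over replicates, against 0.811 ± 0.0165 without it (SD, n = 3). They were found in all 3 replicates in 62.4% of cases, against 66.0% without it. TAATTA lay within 100 bp of the summit in 17.0% with it and 15.8% without it. The element was present at 33.3%, 34.6%, 31.3% and 31.3% of far intron peaks in the strongest to the weakest quartile of the optimal list.

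The homeodomain core itself was hardly more frequent at far intron summits than 1000 bp away. TAATTA was present within 100 bp of 109 summits (16.2%), against 15.5% of flanks and 18.1% over all optimal peaks. By replicate, summits exceeded flanks by 1.3, 1.04 and -0.881 percentage points (0.484 ± 1.19, SD, n = 3; exact two-sided sign-flip permutation p = 0.50). The direction differed between replicates, and with 3 replicates this test cannot go below 0.25. The ratio to flanks was 1.04 at far intron peaks, 1.13 at intergenic, 1.34 at near intron and 1.93 at promoter peaks. The share at the summits differed less between classes (16.2% far intron, 19.1% near intron, 18.4% promoter) than this ratio did. The variant TAATTG was at 19.4% of summits and 21.2% of flanks. Closer to the summit the reading was different. In bins of 100 bp TAATTA was at 9.05% on the summit, against 5.34% and 4.15% at -200 and +200 bp. At -1000 and +1000 bp it was at 8.31% and 8.90%, so the core was more frequent on the summit than just beside it.

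Far intron summits were AT-rich, as optimal peaks were in general. A and T made up 65.4% of the bases within 100 bp of the summit, against 59.8% of the flanks, and 524 of the 674 peaks (77.7%) were richer in A and T than their own flanks. Over replicates the difference was 5.15 ± 0.396 percentage points (SD, n = 3). Over all optimal peaks A and T made up 65.0% at summits and 57.4% in flanks, and at near intron peaks 65.5% and 59.3%. The runs AAAAAA (54.2% of summits and 38.9% of flanks) and ATATAT (26.9% and 16.2%) were likewise held by more summit windows than flanks, with ratios of 1.39 and 1.66 at far intron peaks and 1.53 and 1.83 over all optimal peaks.

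Other short sites are given with the share over all optimal peaks and the ratios by class. GAGAGA, the repeat bound by the GAGA factor, was within 100 bp of 13.5% of far intron summits and in 8.38% of flanks. The ratio was 1.61 (1.54 ± 0.0748 over replicates), against 1.42 at intergenic, 1.02 at near intron and 0.937 at promoter peaks. Its share over all optimal peaks was 9.57%. In bins of 100 bp far intron peaks held GAGAGA in 4.30% on the summit and in 7.86% and 8.01% at -100 and +100 bp. At -1000 and +1000 bp they held it in 3.56% and 4.45%. CAGCTG, an E-box bound by basic helix-loop-helix factors, was at 3.71% of far intron summits and 8.23% of flanks (ratio 0.45), with ratios of 0.602 at intergenic, 0.748 at near intron and 1.02 at promoter peaks and a share of 8.13% over all optimal peaks. ATCGAT, the core of the DNA replication-related element, was at 4.01% of far intron summits and 5.04% of flanks (ratio 0.794), while its ratio at promoter peaks was 2.69 and its share over all optimal peaks 10.5%. Of the 14 6-mers tested against flanks 13 had the same sign in every replicate, with an exact permutation p of 0.25, the smallest possible, and a Benjamini-Hochberg adjusted p of 0.269.

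Far intron sequence was a large territory that held few peaks for its size. It made up 28.4 Mb, or 21.2% of the 134 Mb searched, and held 11.6% of the optimal peaks. Among each replicate's 5809 strongest peaks 578, 724 and 681 were far intron peaks in replicates 1, 2 and 3. That came to 20.4, 25.5 and 24.0 per Mb for far intron peaks (23.3 ± 2.64), against 54.8, 58.8 and 58.3 per Mb for near intron peaks (57.3 ± 2.15, SD, n = 3 each). The values did not overlap, and far minus near was -34.0 ± 0.670 per Mb (exact two-sided sign-flip permutation p = 0.25, the smallest possible). Against intergenic peaks (20.8 ± 2.14 per Mb) the far intron density was higher by 2.45 ± 0.810 per Mb, with the same sign in each replicate and the same p. Promoter peaks stood at 157 ± 11.1 per Mb.

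**Figure D2:**
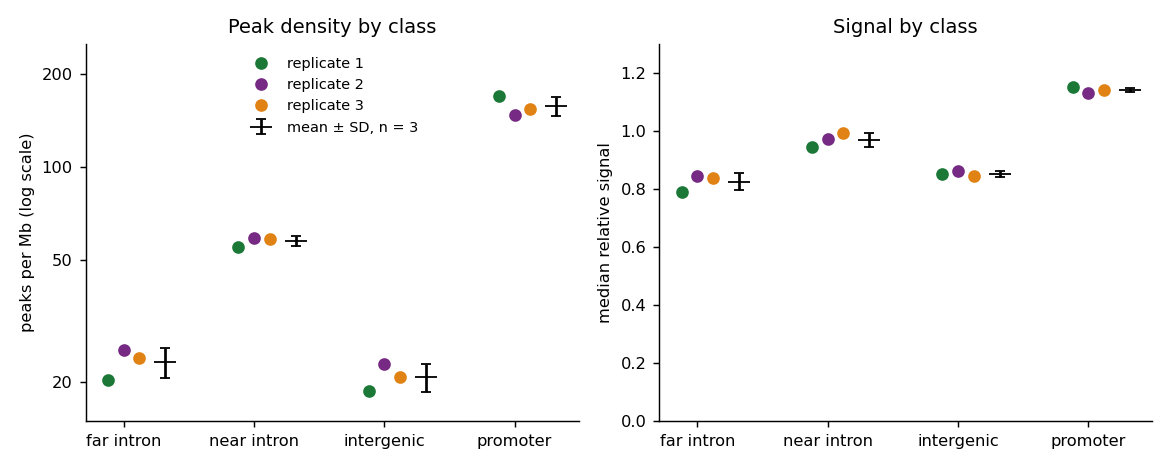
Peaks per Mb of sequence of the class (left, log axis) and median relative signal (right) for far intron, near intron, intergenic and promoter peaks, with 1 point per replicate and the mean ± SD beside them. Far intron peaks lie at 20.4 to 25.5 per Mb and at a relative signal of 0.791 to 0.846, both below near intron peaks in every replicate.

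Within introns the density fell step by step with distance from a start. The optimal list held 88.9 peaks per Mb of intron sequence over 500 to 1000 bp from a start, 66.7 over 1000 to 2000 bp and 41.7 over 2000 to 5000 bp. Past the 5000 bp that defines far intron peaks it held 34.7 per Mb up to 10000 bp (386 peaks), 24.4 up to 20000 bp (210 peaks) and 16.7 up to 40000 bp (69 peaks). Beyond 40000 bp it held 1.99 per Mb (9 peaks), and the order was the same in each replicate. The median far intron peak lay 8984 bp from a start, against 12356 bp for the median base of far intron sequence.

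The last step rested in part on a few genes. Myo81F, Pzl, lovit, CG17684 and DIP-lambda held the most far intron sequence, 3747 kb between them, and no far intron peak in the optimal list or in any replicate's strongest peaks. Without these 5 genes the density beyond 40000 bp was 5.95 per Mb, that from 20000 to 40000 bp was 18.7 and that of all far intron peaks was 27.4. The masked share of the sequence was 22.3% at 5000 to 10000 bp and 37.4% beyond 40000 bp. With masked positions left out of peaks and sequence, the densities were 32.6 per Mb at 5000 to 10000 bp, 24.9 at 10000 to 20000 bp, 18.4 at 20000 to 40000 bp and 3.18 beyond. How far these stretches can be mapped was not tested.

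**Figure D3:**
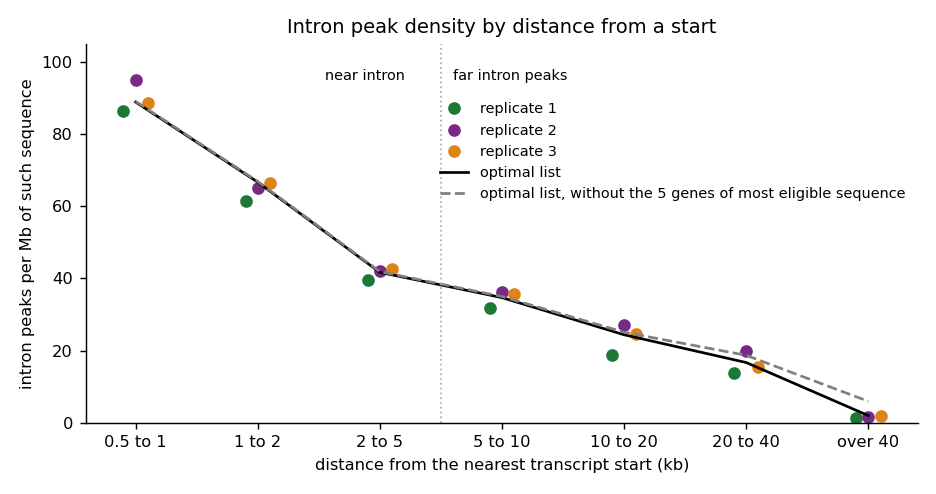
Intron peaks per Mb of intron sequence by distance from the nearest transcript start. Points are replicates, the solid line is the optimal list, and the dashed line leaves out the 5 genes with the most far intron sequence; density falls through all bins, to 1.99 per Mb beyond 40 kb or 5.95 without those genes.

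On the X chromosome far intron peaks numbered 181, or 33.6 per Mb, against 493, or 21.5 per Mb, on the autosomes. The ratio of X to autosomes was 1.34, 1.57 and 1.53 in replicates 1, 2 and 3 (1.48 ± 0.126, SD, n = 3), and 1.56 in the optimal list. Without the 5 genes above, all autosomal, it was 1.31. The same ratio was 1.36 for near intron peaks and 0.931 for intergenic peaks. Embryos of both sexes were pooled, and how the control accounted for the copy number of X was not tested. Chromosome 4 held no far intron peak in 0.249 Mb of such sequence.

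Far intron peaks were weaker than peaks near starts. Their median relative signal was 0.791, 0.846 and 0.839 in replicates 1, 2 and 3, against 0.943, 0.973 and 0.992 for near intron peaks. The groups did not overlap, and far minus near was -0.144 ± 0.0151 (SD, n = 3; exact two-sided sign-flip permutation p = 0.25, the smallest possible; 0.281 after adjustment over 9 class comparisons). Against promoter peaks the difference was -0.315 ± 0.0352, and against intergenic peaks -0.0269 ± 0.0286, about the size of the spread between replicates. None was among the 25 strongest peaks of the list, 2 were among the 100 strongest, and the relative signal ran from 0.541 to 9.04.

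Most far intron peaks were seen among the strongest peaks of each replicate. The authors chose the optimal list for reproducibility from peak lists of these same replicates. The shares below therefore follow in part from that choice and are no independent test. Of the 674, 437 (64.8%) had a summit within 200 bp among the 5809 strongest peaks of all 3 replicates, against 70.1% of all optimal peaks. A further 168 were found in 2 replicates, 66 in 1 and 3 in none. Replicate 1 found 73.3% of them, replicate 2 90.4% and replicate 3 90.5%, and 122 were missing from replicate 1 alone. By signal, 100% of far intron peaks in the strongest quartile of the list were found in all 3, then 97.4%, 76.3% and 14.5%, against 99.7%, 95.2%, 70.6% and 14.8% of all optimal peaks in the same quartiles.

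The strongest far intron peak, in CG32486 (3L, 3060619 to 3060980), had a relative signal of 7.68, 8.72 and 9.46 in replicates 1, 2 and 3 (8.62 ± 0.894). The next, on 2R from 10219873 to 10220295, had 6.53, 7.86 and 8.18 (7.53 ± 0.879). It lay in the first intron of Hr3, an ecdysone-induced nuclear receptor, and also within the bodies of CG12912 and CG46321. Both stood above the other 10 peaks among the 12 strongest in each replicate.

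Next in rank was Gug, which encodes the corepressor Atrophin, at 5.23, 5.76 and 5.46 (5.48 ± 0.266; 3L, 8458140 to 8458522). A peak of tara, a gene of the trithorax group, had 3.86, 5.28 and 6.0 (5.05 ± 1.09; 3R, 16236747 to 16237158). The peak in simj had 4.68, 5.12 and 5.45 (5.08 ± 0.391; 3L, 10682725 to 10683273), and that in Mi-2 had 4.22, 4.45 and 4.76 (4.48 ± 0.274; 3L, 19903122 to 19903445). Both genes encode subunits of the nucleosome remodelling and deacetylase complex. The Mi-2 peak also lay within Su(Tpl), which encodes an elongation factor of RNA polymerase II.

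Hr4, another nuclear receptor of the ecdysone response, held a peak at 3.30, 4.39 and 4.78 (4.15 ± 0.768; X, 1963771 to 1964115). The strongest peak in rdx, whose product targets the Hedgehog effector Ci for degradation, had 3.73, 3.90 and 4.46 (4.03 ± 0.383; 3R, 14012574 to 14012883). That in gpp, the histone methyltransferase of the Dot1 family, varied most in proportion, at 2.33, 3.55 and 4.05 (3.31 ± 0.888; 3R, 6423964 to 6424267). Replicate 1 gave the lowest value for each of the peaks named so far.

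JIL-1, a kinase of histone H3, held a peak at 3.74, 3.20 and 3.39 (3.44 ± 0.271; 3L, 11084629 to 11084929). Dad, an inhibitory Smad of the Dpp pathway, had 2.91, 3.16 and 3.66 (3.24 ± 0.381; 3R, 17064955 to 17065317). The peak in wdb, a regulatory subunit of protein phosphatase 2A, had 3.58, 2.97 and 3.27 (3.27 ± 0.303; 3R, 27569766 to 27570073). Of these 12 peaks 3 had CAGTGNA (Gug, rdx and JIL-1) and 3 had TAATTA (simj, rdx and wdb) within 100 bp of the summit.

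**Figure D4:**
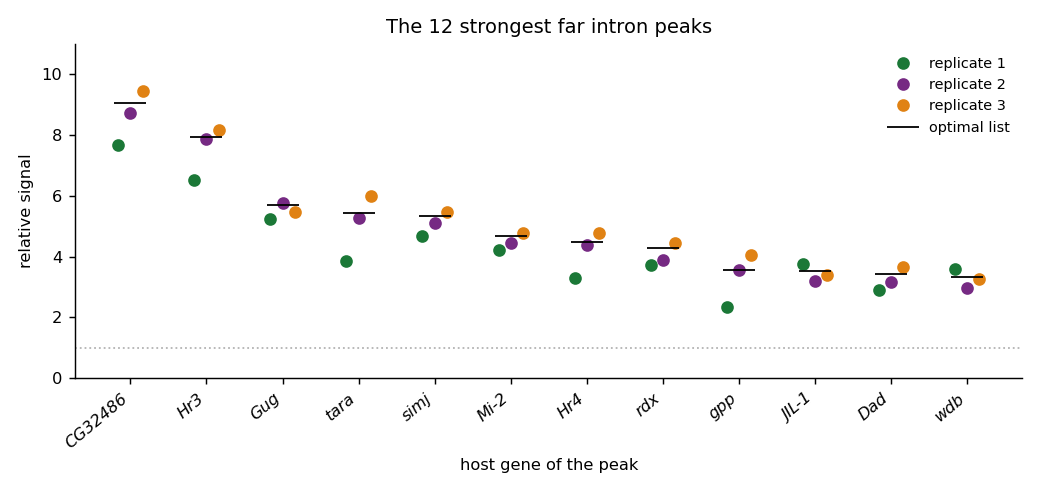
Relative signal of the 12 strongest far intron peaks found in all 3 replicates, by host gene, with a point per replicate and a bar for the optimal list. Signal is divided by the median of the optimal list or, in a replicate, of its peaks matched to optimal peaks (dotted line at 1). The peak labelled Hr3 also lies in CG12912 and CG46321, and that labelled Mi-2 also in Su(Tpl); CG32486 and Hr3 stand highest in every replicate.

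Some genes held several of the peaks. In all, 653 lay in 370 protein-coding genes and 21 in non-coding genes alone; 225 of these 370 hosts held 1 peak, 75 held 2, and 70 held 3 or more. The last group held 288 far intron peaks (42.7%). Another far intron peak lay within 5000 bp of 270 of them (40.1%). Only 387 (57.4%) had a nearest start that belonged to a gene they lay in, and which gene a peak acts on was not measured.

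The gene kirre, which encodes a receptor of the founder cells in myoblast fusion, held the most by count. It had 11 far intron peaks in the optimal list and 9, 13 and 11 in replicates 1, 2 and 3, of which 7 lay together 268 to 306 kb from its 5′ end. The corepressor gene sbb held 10 (9, 10 and 10 by replicate), all 12.8 to 32.1 kb from the 5′ end. In rdx 8 (7, 7 and 8) lay at 13.7 to 32.3 kb, and in tara 7 (8, 6 and 7) lay at 6.42 to 28.0 kb. Per 10 kb of far intron sequence kirre (226 kb of it) held 0.486 peaks, sbb 2.81, rdx 2.34 and tara 4.34. Ten-a, named below, held 0.371 per 10 kb in 162 kb.

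SKIP held 8 far intron peaks (4, 8 and 8 by replicate) scattered from 5.47 to 136 kb. The gene hth, a homeodomain partner of Hox proteins, held 7 (6, 6 and 8), among them the 3 farthest from any start, at 49839, 47685 and 45516 bp. Their relative signals in the optimal list were 1.33, 1.05 and 0.59. The Wnt receptor gene fz held 6 (6, 5 and 5), cv-c 6 (4, 4 and 5), the teneurin gene Ten-a 6 (5, 6 and 6), and mam, the coactivator of Notch, 6 (5, 6 and 5). None of the peaks in mam or Ten-a exceeded a relative signal of 0.920. The non-coding genes lncRNA:CR44999 and lncRNA:CR44357 held 7 and 6.

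**Figure D5:**
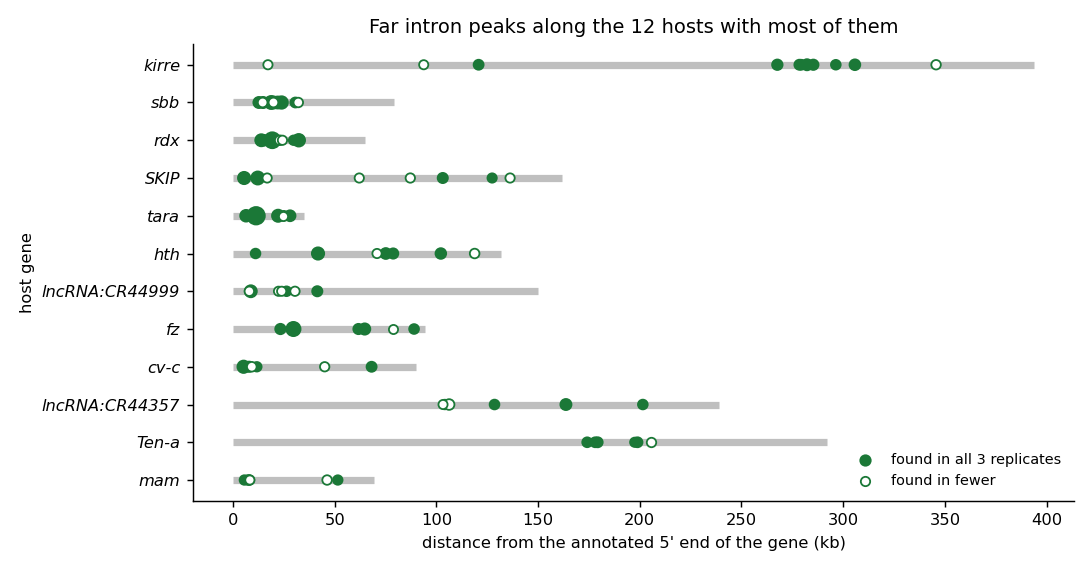
Far intron peaks along the 12 genes that held the most. Grey bars are the genes, drawn from the annotated 5′ end, circles are peaks with an area that grows with relative signal, and filled circles were found in all 3 replicates; the last peaks of sbb, rdx and tara lie 32.1, 32.3 and 28.0 kb from the 5′ end, and 7 of the 11 in kirre lie 268 to 306 kb from it.

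Far intron peaks lay in early introns more often than far intron sequence did. Of the 653 in protein-coding genes 31.9% were in a first intron and 38.9% in a second, against 19.4% and 27.1% of the sequence. Introns after the second held 29.2% of the peaks and 53.5% of the sequence (49.1% without the 5 genes named above). Distance from the start was not held fixed in these shares.

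The share of genes with a far intron peak varied between the gene lists from 12.1% to 75%. Of 1374 protein-coding genes with at least 1000 bp of far intron sequence 368 (26.8%) held a peak. The share depended on how much such sequence a gene had, from 10.4% of genes with 1 to 5 kb to 51.3% of those with over 50 kb, with 43.8% of those with 20 to 50 kb, so the median amount is given for each list. The density over all these genes was 23.6 peaks per Mb. The counts are descriptions with no test, and the lists overlap in part.

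Of 16 genes of Wnt, Hedgehog and Dpp signalling 12 held a far intron peak (75%; median 13.3 kb of such sequence), in 10, 11 and 12 of them by replicate. With a limit of 2000 bp the share was 54.2%, below that of 3 other lists. They were led by fz (strongest relative signal 3.14), sog, which encodes an extracellular antagonist of Dpp (2.70), and dpp itself, the BMP ligand (1.86). Of 18 genes of EGF receptor, FGF and Notch signalling 8 did (44.4%; 11.6 kb), led by the receptor N (2.91), the ETS factor pnt (1.81) and S, which acts in the trafficking of the EGF receptor ligand Spitz (1.35). Of 11 dorsoventral and columnar genes 5 did (45.5%; 11.8 kb), led by sog, dpp and the GATA cofactor ush (1.71).

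Of 14 nuclear receptor and ecdysone genes 8 held a far intron peak (57.1%; median 21.0 kb), led by Hr3 (7.92), Hr4 (4.47) and Eip75B (1.78). Homeobox genes outside the Hox clusters had a far intron peak in 7 of 35 (20%; 7.82 kb; 36.7 peaks per Mb), led by hth (2.03), ct (2.00) and Lim1 (1.44). The share was 11.4% when peaks had to be found in all 3 replicates. Among all genes with 5 to 10 kb of far intron sequence 21.9% held a peak, and the density over all genes was 23.6 per Mb. Gap, pair-rule and Hox genes had 4 of 10 (40%; 11.6 kb), including Antp (1.88) and Ubx (0.91). In the list of zinc finger and other transcription factor genes 13 of 31 did (41.9%; 18.7 kb), led by tara (5.42), mamo (2.38) and ush.

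Axon guidance genes had a far intron peak in 15 of 31 (48.4%; median 23.0 kb; 37.1 peaks per Mb), led by the adhesion gene Fas3 (2.46), the guidance cue NetA (1.39) and neuroglian, Nrg (1.15). Their share was 25.8% when peaks had to be found in all 3 replicates. Cell adhesion, cadherin and teneurin genes had 10 of 24 (41.7%; 29.3 kb; 25.7 peaks per Mb), led by the integrin gene mew (2.41), ed (1.61) and kirre (1.42). Neuronal RNA-binding genes had 9 of 17 (52.9%; 38.0 kb), with 15.2 peaks per Mb, led by how (1.69), sm (1.38) and msi (0.99). Ion channel and synapse genes had 4 of 33 (12.1%; 20.1 kb; 22.2% with a limit of 2000 bp and 6.06% for peaks found in all 3 replicates), led by the calcium channel gene Ca-alpha1T (0.95), Elk (0.84) and rdgA (0.80). The listed dpr and DIP genes, which encode partners in neuronal recognition, had 3 of 23 (13%; 17.0 kb), namely DIP-gamma (0.68), dpr6 (0.64) and dpr8 (0.55), and none of these 3 peaks was found in all 3 replicates. DIP-lambda, with 366 kb of far intron sequence and no peak, was not on that list. Cytoskeleton genes had 4 of 16 (25%; 11.1 kb; 39.1% with a limit of 2000 bp), led by rg (1.53), Abl (1.12) and Mbs (0.86), and none of the 20 listed ribosomal protein genes had 1000 bp of far intron sequence.

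The 5000 bp limit did not fall at a break in the signal. Just inside it lay peaks in ed at 5015 bp from a start (relative signal 1.41), tara at 5021 bp (1.99) and cv-c at 5022 bp (0.93). Just outside lay intron peaks in SLO2 at 4995 bp (0.64), Pdk at 4987 bp (0.62) and ush at 4967 bp (0.81). The 67 far intron peaks up to 5500 bp had a median of 0.837, and the 67 intron peaks from 4500 to 5000 bp had 0.833.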

How the data were processed

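Per the notes they deposited, the authors called relaxed peak lists for each replicate and for pooled reads, then chose the optimal list from them by irreproducible discovery rate, in dm6 and dm3. The tools for alignment and peak calling (names, versions) were not given in the sources used here. Each peak's signal value is the authors' own, as deposited, and was used only within its list. The deposited −log10 q-value was 4.08 for every optimal peak and was not used for ranking. Read depth is unknown, so no interval that needs it is given, and the small number of replicates limits the precision. The dm3 lists, the control, alignments and tracks were not analysed here.

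Summits were joined to the soft-masked RefSeq dm6 assembly and the Ensembl BDGP6 annotation (release 115, no transposable elements) on the arms 2L, 2R, 3L, 3R, 4 and X with matplotlib 3.10.9, scipy 1.17.1, pandas 2.3.3 and numpy 2.4.6 under Python 3.11.15, by code tested on simulated data. Promoters took precedence, then coding and untranslated sequence. Introns here include exons of non-coding genes, which held 1 far intron peak. Being found in a replicate meant a summit within 200 bp among its 5809 strongest peaks, and replicate densities use those same peaks. Replicate relative signals come from the strongest peak of the full relaxed list within 200 bp, divided by the median of such signals over all optimal peaks. Motifs were sought on both strands within 100 bp of the summit and of points 1000 bp to each side, and in 56723 windows tiled every 500 bp. Differences between classes, or between summits and flanks, were tested by an exact two-sided sign-flip permutation over 3 replicates, whose smallest p is 0.25.

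The members, gene lists, motifs and tests were chosen with earlier results of these data known. Genes named are the hosts of the 12 strongest far intron peaks found in all 3 replicates, the 12 genes holding the most, up to 3 per list, the 3 peaks on each side of the 5000 bp limit and the 3 farthest; CAGTGNA, its orientation, the genes whose sequence is shown for it and the genes with the most far intron sequence were chosen after values were seen. One list symbol, Dl, stayed unmatched.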

Additional observations from a re-analysis of the deposited data

How the results depend on the processing

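The share of optimal peaks that were far intron peaks was 11.6%, and it was 21.2% with a limit of 2000 bp, 4.96% with 10000 bp and 8.57% among the stronger 50% of the list. Their density of 23.8 per Mb was 29.5, 16.7 and 8.78 under the same choices, 15.4 counting only peaks found in all 3 replicates and, in an alternative chosen after seeing the data, 27.4 without the 5 genes of most far intron sequence. Fewer or more peaks and less or more sequence are what these choices change. The share found in all 3 replicates, 64.8%, was 98.4% in the stronger 50%, 44.2% when intervals had to overlap by 50% of both and 98.2% against the full relaxed lists; the alternative of peaks found in all 3 gives no value here. The difference in relative signal from near intron peaks, -0.144, was -0.179 in the stronger 50%, -0.193 for peaks found in all 3, -0.315 against promoter peaks, -0.0269 against intergenic peaks and -2.48 percentage points as a rank percentile, lower in each case.

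The TAATTA ratio of 1.04 was 1.14 with a limit of 2000 bp and 1.25 with flanks 500 bp away. It turned below 1 with a limit of 10000 bp (0.980), in the stronger 50% (0.971) and with windows of 200 bp to each side (0.949); the cause was not tested. The CAGTGNA ratio of 3.21, whose alternatives were all chosen after seeing the data, was 1.53 with windows of 50 bp and 2.44 with 200 bp to each side.

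Leaving out each replicate in turn gave 10.8% to 12.1% for the share, 22.2 to 24.8 for the density, 68.0% to 82.9% for the share found in both others (82.9% without replicate 1), -0.153 to -0.140 for the signal difference, 1.01 to 1.08 for the TAATTA ratio and 2.99 to 3.46 for the CAGTGNA ratio. The share of genes with a far intron peak was 26.8%, with 26.1% at 2000 bp and 19.7% for peaks found in all 3 replicates. No paired analysis was possible because there is no second group of samples to pair with; differences between classes, and between summits and flanks, were taken within each replicate. Depth is unknown. Of far intron peaks in the weakest quartile of the list 14.5% were found in all 3 replicates, against 14.8% of all optimal peaks there.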

Other observations

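Among the 2080 6-mers counted on both strands, the median ratio of far intron summits to their flanks was 0.891. The 36 6-mers made of A and T alone had a median ratio of 1.40, and TAATTA ranked 36 of them. Only 1 of these 36 stood among the 40 highest ratios of all 6-mers. After the 6-mers from which CAGTGNA was put together, the next by ratio were GTACAC at 2.89 (11.6% of summits and 4.01% of flanks), CTACTA at 2.53 (7.12% and 2.82%), CTGTAC at 2.44 (9.79% and 4.01%) and GATACC at 2.43 (8.46% and 3.49%). These were chosen after their values were seen and carry no test.

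By arm, the density of far intron peaks was 26.8 per Mb on 2L, 18.6 on 2R, 22.9 on 3L and 20.2 on 3R. CAGTGNA was at 33.1% of far intron summits on X, against 32% on the autosomes, and at 32.1% of those 5000 to 10000 bp from a start, 30% of those at 10000 to 20000 bp and 39.7% of the 78 beyond.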
